A study of Homo sapiens and Mus musculus with 18 samples.

Results

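The protein components of the mitochondrial ribosome that carry MRPL or MRPS names were followed in 2 human pancreatic cancer cell lines in which keratin 17 (K17, encoded by KRT17) was removed or added. Members were the protein-coding genes of GENCODE 29 whose symbol starts with MRPL or MRPS followed by a digit. Of 78 such genes, 70 had a row among the 34505 human rows (27 MRPS and 43 MRPL), and 8 (MRPL12, MRPL14, MRPL41, MRPL44, MRPL50, MRPL57, MRPS10 and MRPS26) were not analysed here. The 70 genes lie on 20 chromosomes, and the rule that selects them uses no measured value. Exons of 32 members overlap those of another gene, 11 of them on the same strand.

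The mitochondrial ribosome is assembled in the mitochondrial matrix from ribosomal RNA encoded by mitochondrial DNA and from proteins that are all encoded in the nucleus and imported. It translates the few mRNAs of mitochondrial DNA, which encode subunits of the respiratory chain and of ATP synthase. Some of its proteins descend from bacterial ribosomal proteins and others are found only in mitochondria, and symbols do not always tell the subunit: MRPS30 and MRPS18A are proteins of the large subunit, and MRPS36 is now counted with the alpha-ketoglutarate dehydrogenase complex.

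Total RNA was sequenced from 4 human groups of 3 libraries. L3.6, a line of pancreatic adenosquamous carcinoma, was used with K17 knocked out by CRISPR-Cas9 and with K17 wild type. PANC-1, a line of pancreatic ductal adenocarcinoma, was used with K17 over-expression and with an empty vector, and both lines grew in the same serum-containing medium. The labels do not say whether the knockout was 1 clone or a pool, which promoter drove K17, or whether replicates were separate cultures, so p-values measure the spread between these libraries, which may be technical. The 6 mouse libraries of the series (KPC cells) were not used.

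KRT17 had 202, 204 and 175 counts in L3.6 K17 knockout libraries, against 1654, 1112 and 1420 in wild type libraries, and 8597, 9884 and 9228 counts in PANC-1 K17 libraries, against 2, 0 and 0 in empty vector libraries. Totals were 9485257 to 15476629 counts in L3.6 and 59671178 to 70789559 in PANC-1. All 5 epithelial markers (EPCAM, CDH1, KRT8, KRT18, KRT19) reached 1 CPM (counts scaled to library size) in both L3.6 groups and 4 of 5 did in both PANC-1 groups. The 5 fibroblast markers summed to at most 4.71 CPM in L3.6 knockout and 7.05 CPM in wild type libraries, and to 8.92 to 10.8 CPM in PANC-1 K17 and 16.3 to 27.1 CPM in empty vector libraries, most of the PANC-1 sum being THY1. The 5 endothelial markers summed to 3.48 to 4.03 CPM in knockout and 8.78 to 13.0 CPM in wild type libraries, mostly PECAM1 (lower in knockout cells, edgeR adjusted p = 0.0047), and to 1.36 to 1.39 CPM in K17 and 0.910 to 2.66 CPM in empty vector libraries. The 5 immune markers summed to 1.70 to 6.11 CPM in knockout and 3.55 to 4.46 CPM in wild type libraries, and to 35.2 to 42.3 CPM in K17 and 35.6 to 51.0 CPM in empty vector libraries, most of the PANC-1 sum being CD68, while CD3E had 0 counts in all 12 libraries. The other marker called in L3.6 was KRT19, higher in knockout cells (log2 fold change 0.295, edgeR adjusted p = 0.021). In PANC-1 no marker was called with all libraries. Without empty vector replicate 2, KRT8 was higher with K17 (0.16, edgeR adjusted p = 0.0098) and THY1 lower (-0.89, edgeR adjusted p = 0.0018). The part of these markers in the results was not tested. PANC-1 empty vector replicate 2 stood apart: 18.8% of its counts fell on mitochondrially encoded genes, and 9.88% to 10.8% did so in the 5 remaining PANC-1 libraries. In L3.6, wild type replicate 1 differed more from the other wild type libraries (chi-square per degree of freedom 39.3 and 49.1) than these differed from each other (5.52). Summed levels and counts of called members in the K17 comparison of each line are therefore given with and without these libraries. Other results use all libraries unless stated, so those of L3.6 include wild type replicate 1.

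Nearly all members were expressed in both lines. Levels between genes were compared as CPM per kilobase of exon, averaged over the 6 libraries of a line, with medians of 12.1 for L3.6 and 10.3 for PANC-1. In L3.6 the highest levels per kilobase were those of MRPL47 (119), MRPS34 (109), MRPL37 (81.9) and MRPL15 (76.4), and the next MRPS members were MRPS18A (49.0) and MRPS21 (41.2). In PANC-1 the highest were MRPL15 (158), MRPL47 (140), MRPL3 (73.0) and MRPS34 (69.8), followed among MRPS members by MRPS21 (57.3) and MRPS16 (29.2). The order of the 70 genes was similar in the lines (Spearman's rho 0.819 across genes, which share annotation and exon lengths and are not independent replicates).

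A few members were almost absent from the count tables. MRPL54, a large-subunit protein found only in mitochondria, MRPS18B, a mitochondrial relative of bacterial S18, and MRPS9, a relative of bacterial S9, had a mean under 1 CPM in both lines. These rows may hold only part of the reads of their genes, so low counts need not mean low expression. This was not tested. MRPL45, which anchors the large subunit at the inner membrane, had 45, 42 and 67 counts in L3.6 knockout libraries and 64, 56 and 66 in wild type libraries, but 0 counts in all 6 PANC-1 libraries. The row of its pseudogene MRPL45P2 held 104 to 187 counts in L3.6 and 614 to 714 in PANC-1. These counts are not scaled, and library totals were 9485257 to 15476629 in L3.6 and 59671178 to 70789559 in PANC-1. The larger counts in PANC-1 thus do not show a higher level there. How reads that match several genes were assigned is not given in the sources used here. The split of reads between MRPL45 and its pseudogene is therefore uncertain, and whether it differs between the lines was not tested.

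Summed over members, MRPS genes came to 1281 ± 18.8 CPM in L3.6 K17 knockout cells and 1242 ± 99.3 CPM in wild type cells (SD, n = 3 each), and MRPL members to 2625 ± 46.4 and 2522 ± 258 CPM. Both differences were smaller than the spread of the wild type libraries, which came from replicate 1, with 1353 CPM for MRPS and 2811 CPM for MRPL members. Without it the wild type means were 1186 CPM for MRPS and 2377 CPM for MRPL members (n = 2). The knockout libraries (1260 to 1297 CPM for MRPS and 2573 to 2663 CPM for MRPL members) then all lay above both wild type libraries. The same was true of 86 cytosolic ribosomal protein genes (47743 to 51197 CPM in knockout, against 42081 and 42120 CPM in these wild type libraries). In PANC-1, MRPS members summed to 1192 ± 13.2 CPM with K17 and 1329 ± 309 CPM with empty vector, and MRPL members to 2177 ± 23.6 and 2464 ± 441 CPM. The spread of the empty vector group came from replicate 2, with 1685 CPM for MRPS and 2971 CPM for MRPL members. Without it the empty vector means were 1150 CPM for MRPS and 2210 CPM for MRPL members (n = 2). The K17 libraries (1177 to 1203 CPM) then all lay above both empty vector libraries for MRPS members, and the groups overlapped for MRPL members. In such bulk samples a smaller share of expressing cells and less RNA per cell cannot be told apart.

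**Figure D1:**
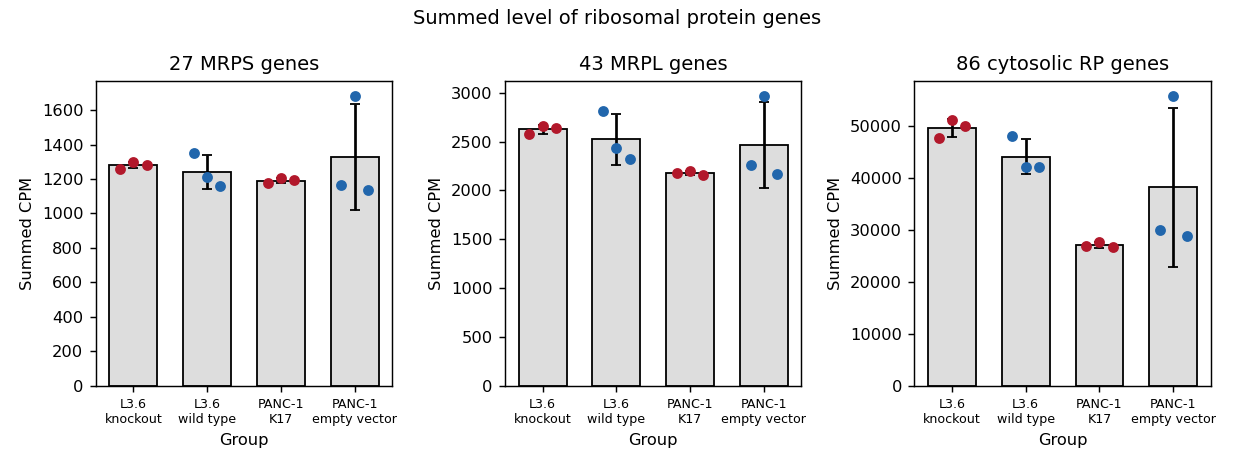
Summed CPM of the 27 MRPS genes, the 43 MRPL genes and 86 cytosolic ribosomal protein (RP) genes in each library (points), with the group mean (bar) and SD (error bar, n = 3). PANC-1 empty vector replicate 2 is the highest PANC-1 library in all 3 panels, and L3.6 wild type replicate 1 is the highest wild type library.

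The departure of PANC-1 empty vector replicate 2 ran through most members. On the log2 CPM scale its ratio to the mean of the other 5 PANC-1 libraries had a median of 0.62 over the 68 members tested in PANC-1, against 0.016 over 16278 genes. It was above 0 for 58 members and below 0 for 10. This library was the highest of the 6 for 48 of the 68 members (38.2% of all genes tested) and the lowest for 7 (38.3% of all genes). MRPS18C, for example, had 56.3 CPM there and 23.2 to 26.6 CPM in the other 5 libraries, and MRPS12, a protein of the decoding centre, had 41.2 CPM against 20.8 to 21.7 CPM.

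The exceptions went the other way. MRPS30 had 27.2 CPM in empty vector replicate 2 and 55.6 to 60.5 CPM in the other 5 PANC-1 libraries, and MRPL42 had 219 CPM against 261 to 293 CPM. Members with a higher GC content of their transcripts stood further above the other libraries in replicate 2. The median ratio was 0.33 in the 23 members lowest in GC, 0.66 in the middle 22 and 0.84 in the 23 highest. Spearman's rho between this ratio and GC content was 0.48 over members and 0.40 over all genes, all measured in the same libraries. What part GC content has in the departure was not tested.

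**Figure D2:**
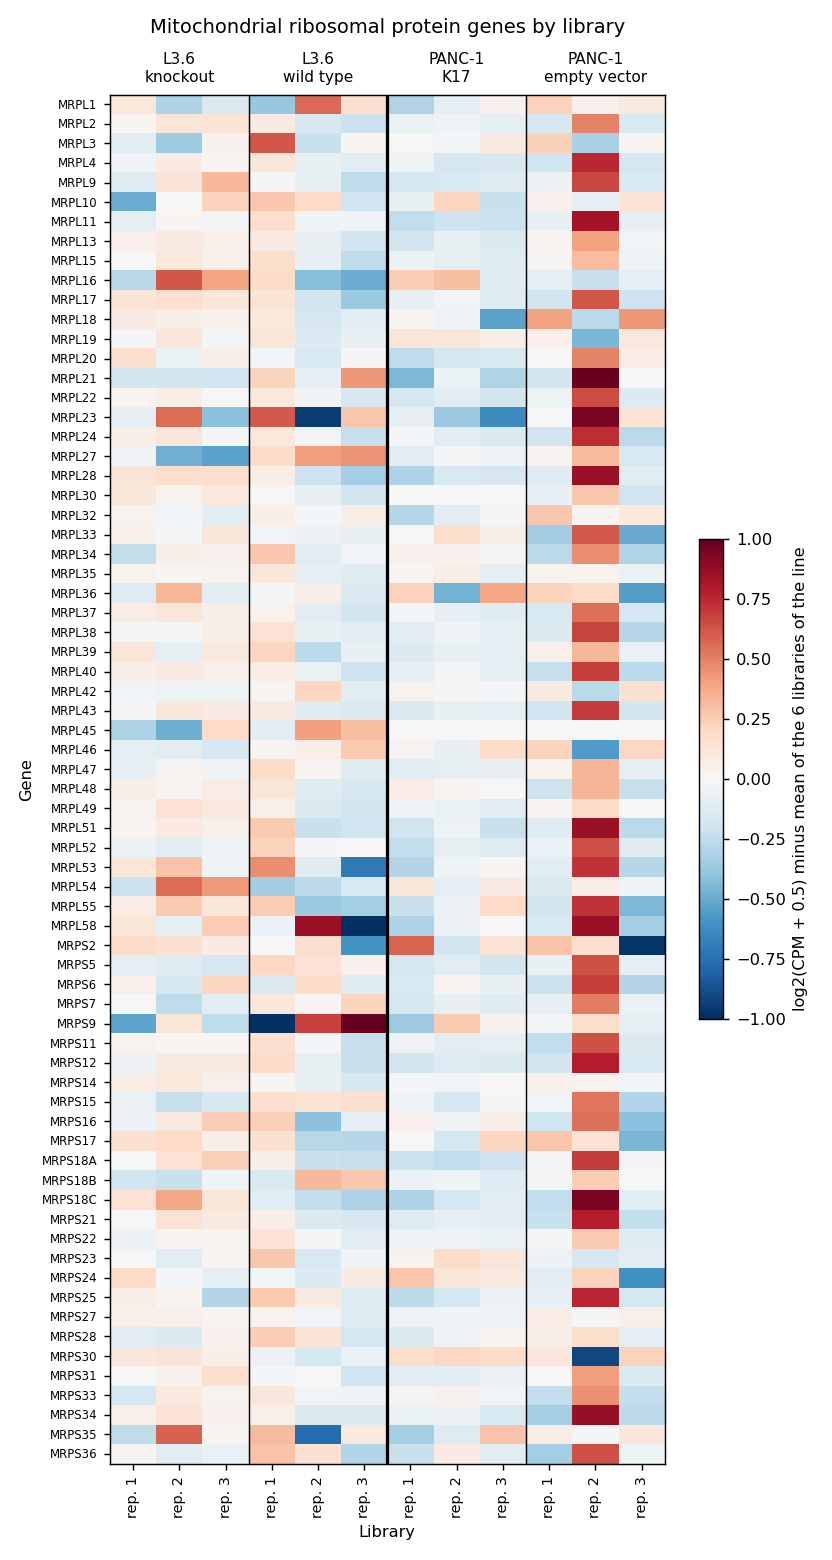
Level of each of the 70 genes in each library, as log2(CPM + 0.5) minus the mean of the 6 libraries of the same line; the colour scale ends at -1 and 1. PANC-1 empty vector replicate 2 is the column in which 48 of 68 tested members are at their highest in PANC-1.

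Spread between replicates was widest in the 2 groups that hold these libraries. Over members of at least 5 CPM, the median coefficient of variation was 4.49% in L3.6 K17 knockout cells, 9.91% in L3.6 wild type cells, 3.50% in PANC-1 K17 cells and 30.6% in PANC-1 empty vector cells. Without replicate 2 the empty vector value was 3.58%.

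Knocking out K17 in L3.6 left nearly all members without a called change. MRPS5, a small-subunit protein at the mRNA entrance, fell, and no member rose at an adjusted p under 0.05. Of 67 members tested (MRPL54, MRPS9 and MRPS18B had too few counts), 1 was called, against 9.61% of the 13891 genes tested (6.1% higher and 3.51% lower). MRPS5 had 102, 99.4 and 96.8 CPM in K17 knockout libraries, against 125, 120 and 112 CPM in wild type libraries. Every knockout library lay below every wild type library. The log2 fold change was -0.27 (SE 0.058), with an adjusted p of 0.027 by the quasi-likelihood test of edgeR after Benjamini and Hochberg. The call was lost when any of the knockout libraries (adjusted p 0.078 to 0.13) or wild type replicate 2 (0.096) was left out. Exons of MRPS5 overlap those of ZNF514 on the same strand.

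The members next in order missed the threshold. MRPL27, whose bacterial counterpart reaches into the peptidyl transferase centre, had 8.97, 6.47 and 6.19 CPM in K17 knockout libraries, against 10.5, 12.5 and 12.8 CPM in wild type libraries. The groups did not overlap, and the value of -0.72 on the log2 fold scale (SE 0.19, edgeR adjusted p = 0.054) was the lowest of all tested members. MRPS18C, a small-subunit relative of bacterial S18, had 22.4, 26.5 and 22.0 CPM in knockout libraries, against 18.7, 17.0 and 16.2 CPM in wild type libraries (log2 fold change 0.45, SE 0.12, edgeR adjusted p = 0.058). The groups did not overlap either. MRPL28 of the large subunit averaged 104 ± 1.72 CPM in knockout cells and 83.9 ± 12.2 CPM in wild type cells (SD, n = 3 each), and its edgeR adjusted p was 0.085. The other extremes of the list, MRPL16 (0.59) and MRPL55 (0.28) at the high end and MRPL45 (-0.42), MRPL21 (-0.42) and MRPL3 (-0.33) at the low end, had log2 fold changes with edgeR adjusted p of 0.19 to 0.39.

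Across the 67 members the median log2 fold change was 0.07, against -0.01 over all genes tested, with 44 above 0 and 23 below. The knockout libraries all lay above the wild type libraries for 8 members (17.9% of all genes) and all below for 7 (15.3% of all genes). By structural class, the call was 1 of 14 tested small-subunit proteins with bacterial counterparts, with 0 of 8 small-subunit proteins of mitochondria only, 0 of 28 large-subunit proteins with bacterial counterparts and 0 of 16 large-subunit proteins of mitochondria only. At an unadjusted p under 0.05 (edgeR) there were 10 members in all. That count is to be read against at least 9.61% of all genes, since each called gene also had an unadjusted p under 0.05. By DESeq2, 2 members were called (MRPS5 and MRPL27), against 12% of all genes. Cytosolic ribosomal protein genes had a median log2 fold change of 0.17, with 11 higher and 1 lower of 82 tested.

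Wild type replicate 1 weighed on this count. It was above both other wild type libraries for 52 of 67 members, against 37.5% of all genes. Without it, 14 of 69 members were called, 12 higher and 2 lower, against 17.2% of the 14463 genes then tested (10.6% higher and 6.61% lower). The members higher in knockout cells were then led by MRPL28 (log2 fold change 0.44, edgeR adjusted p = 0.005), MRPL17 (0.43, 0.010), MRPL37 (0.24, 0.014) and MRPL49 (0.27, 0.015), and those lower were MRPS5 (-0.22, 0.033) and MRPL27 (-0.80, 0.043). Whether replicate 1 or the other wild type libraries stand nearer to the usual state of the line was not tested.

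**Figure D3:**
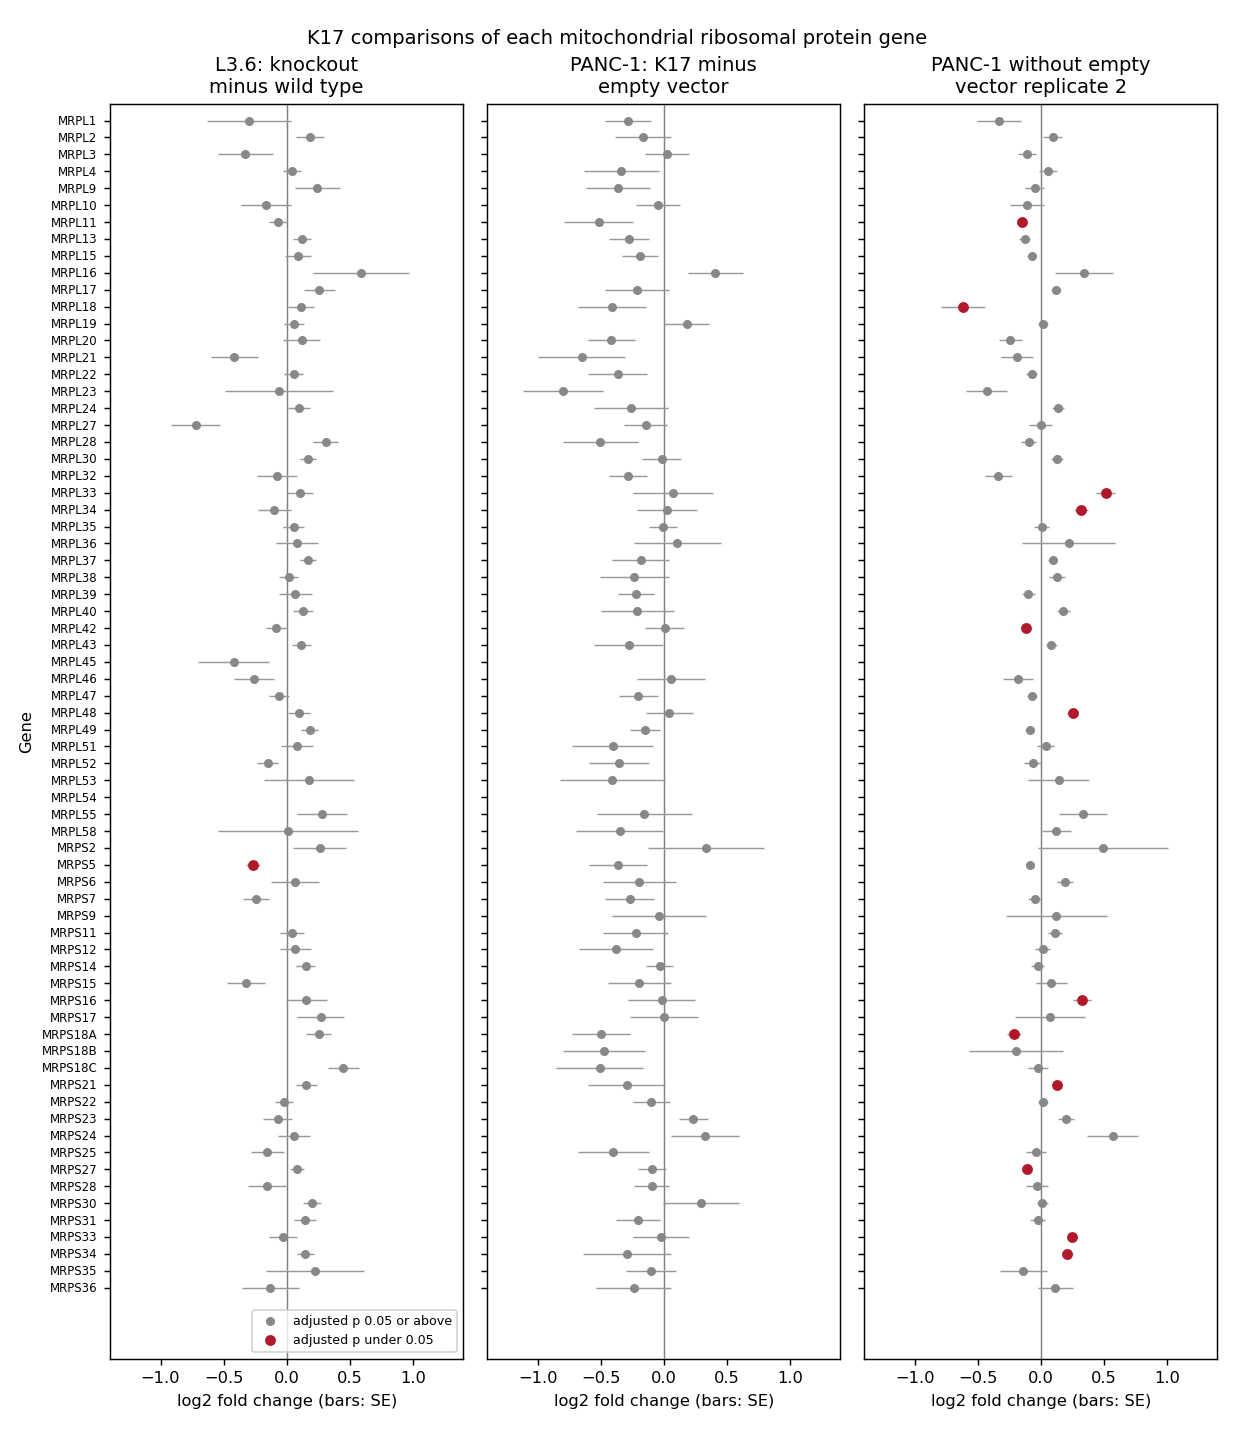
Log2 fold change of each tested member (points, with SE bars) for L3.6 K17 knockout minus wild type, PANC-1 K17 minus empty vector, and the same PANC-1 comparison without empty vector replicate 2; red marks an edgeR adjusted p under 0.05. The panels hold 1, 0 and 12 red points, and the SE bars are widest in the middle panel (median SE 0.25, against 0.11 and 0.063 in the outer panels).

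With all 6 PANC-1 libraries, no member passed the test for K17 over-expression. Of 68 members tested (MRPL45 and MRPL54 were not), 0 were called by edgeR and 0 by DESeq2, against 0.644% of 16295 genes by edgeR and 3.65% by DESeq2, and 1 member had an unadjusted p under 0.05. limma-voom with quality weights called 8, 5 higher and 3 lower, against 18.7% of all genes by that method (11.5% higher and 7.17% lower). The member under 0.05 was MRPL23, which lies near the exit of the nascent-chain tunnel, with 12.3, 9.98 and 8.30 CPM in K17 libraries, against 13.0, 25.8 and 14.4 CPM in empty vector libraries. The groups did not overlap (log2 fold change -0.80, SE 0.32, edgeR adjusted p = 0.48). The median over members was -0.20, against 0.01 over all genes, with 13 above 0 and 55 below. The extremes were MRPL23, MRPL21 (-0.65), MRPL11 (-0.52) and MRPS18C (-0.51) at the low end and MRPL16 (0.41), MRPS2 (0.34), MRPS24 (0.33) and MRPS30 (0.30) at the high end. Cytosolic ribosomal protein genes had a median of -0.53 in the same comparison. The K17 libraries all lay above the empty vector libraries for 1 member, MRPS23 (14.5% of all genes), and all below for 15 (11.1% of all genes).

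Without empty vector replicate 2, with 3 K17 and 2 empty vector libraries left, 7 members rose and 5 fell. These 12 of 68 compare with 20.7% of the 16640 genes tested (11.4% higher and 9.25% lower), and the median of members was 0.01, the same as over all genes (0.01). All 12 changes were under 2-fold. The K17 libraries all lay above both remaining empty vector libraries for 20 members (25.3% of all genes) and all below for 18 (22.9% of all genes). By comparison, 1 cytosolic ribosomal protein gene rose and 36 fell among 82 tested.

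The largest of the rises was that of MRPL33, a small large-subunit protein with a bacterial counterpart. It had 36.9, 41.5 and 38.5 CPM in K17 libraries, against 28.7 and 25.7 CPM in empty vector replicates 1 and 3, which is 0.51 on the log2 fold scale (SE 0.079, edgeR adjusted p = 0.0039). Empty vector replicate 2, at 56.6 CPM, was above all K17 libraries. MRPS33, found only in mitochondria, had 82.1, 84.2 and 80.1 CPM in K17 libraries, against 68.9 and 69.1 CPM in the empty vector pair (log2 fold change 0.25, SE 0.035, edgeR adjusted p = 0.0033). Replicate 2 again lay highest, at 112 CPM. Exons of MRPL33 overlap those of BABAM2 on the same strand.

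The other rises were small and included members of both subunits. In the small subunit these were MRPS16 (log2 fold change 0.33), MRPS34 (0.21) and MRPS21 (0.13), with edgeR adjusted p of 0.023, 0.017 and 0.038. Exons of MRPS16 overlap those of DNAJC9 on the same strand. MRPS34, found only in mitochondria, had 70.0, 70.4 and 66.0 CPM in K17 libraries, against 57.8 and 61.1 CPM in the empty vector pair. In the large subunit MRPL34 (0.32, edgeR adjusted p = 0.0074) and MRPL48 (0.25, edgeR adjusted p = 0.0064) rose. MRPL34 had 25.7, 25.6 and 25.1 CPM in K17 libraries, against 20.5 and 20.1 CPM. For these 5 genes, as for MRPL33 and MRPS33, empty vector replicate 2 lay above every K17 library.

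Of the members that fell, MRPL18 changed most. This relative of bacterial L18 had 9.70, 9.32 and 6.48 CPM in K17 libraries, against 12.9 and 13.1 CPM in the empty vector pair (log2 fold change -0.62, SE 0.17, edgeR adjusted p = 0.049). Here replicate 2 (7.88 CPM) lay among the K17 libraries. MRPL11, part of the stalk base where translation factors bind, had 87.5, 90.1 and 89.6 CPM in K17 libraries, against 98.7 and 98.4 CPM (log2 fold change -0.15, edgeR adjusted p = 0.017), and 185 CPM in replicate 2. MRPS27, an RNA-binding protein of the pentatricopeptide repeat family, had 173, 174 and 174 CPM in K17 libraries, against 189 and 186 CPM in the empty vector pair and 180 CPM in replicate 2. Its fall (log2 fold change -0.11, edgeR adjusted p = 0.025) was small, but the K17 libraries lay below all 3 empty vector libraries. MRPS18A (-0.21, edgeR adjusted p = 0.034) and MRPL42 (-0.11, edgeR adjusted p = 0.033), both of the large subunit, made up the list.

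**Figure D4:**
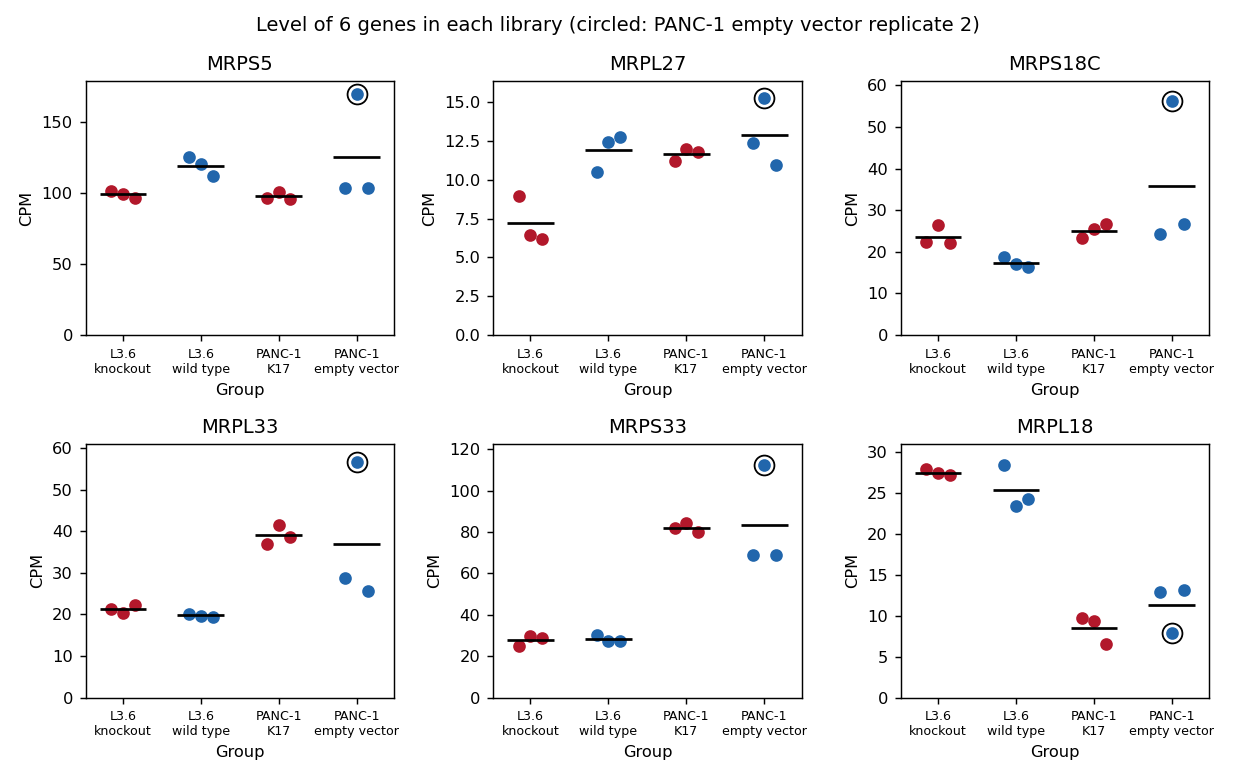
CPM of 6 members in each library (points; lines are group means of 3 libraries; the circle marks PANC-1 empty vector replicate 2). MRPS5, MRPL27 and MRPS18C do not overlap between the L3.6 groups, and MRPL33, MRPS33 and MRPL18 separate the PANC-1 groups only if the circled library is left out.

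The stretches upstream of 4 of these genes are shown because MRPS5 and MRPL27 had the smallest p among members in L3.6 and MRPS33 and MRPL33 in PANC-1 without replicate 2. Each is the 250 bases before the transcription start in RefSeq (GRCh38.p14), read 5′ to 3′ on the strand of the gene. For MRPS5 and MRPS33, with 2 starts in the table, the first is used. Capitals mark exact matches, on either strand, to the core of the NRF1 motif or to CCGGAAGT (ETS factors such as GABP), factors known to act at many nuclear genes for mitochondrial proteins. The locations are chr2:95121809-95122058 (minus strand), chr17:50373185-50373434 (minus strand), chr7:141014953-141015202 (minus strand) and chr2:27771469-27771718 (plus strand).
MRPS5: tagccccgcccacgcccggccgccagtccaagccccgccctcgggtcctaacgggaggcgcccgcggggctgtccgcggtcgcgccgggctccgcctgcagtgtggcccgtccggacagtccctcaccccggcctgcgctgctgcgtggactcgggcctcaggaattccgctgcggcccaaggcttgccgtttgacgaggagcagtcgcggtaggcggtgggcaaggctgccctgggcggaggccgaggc
MRPL27: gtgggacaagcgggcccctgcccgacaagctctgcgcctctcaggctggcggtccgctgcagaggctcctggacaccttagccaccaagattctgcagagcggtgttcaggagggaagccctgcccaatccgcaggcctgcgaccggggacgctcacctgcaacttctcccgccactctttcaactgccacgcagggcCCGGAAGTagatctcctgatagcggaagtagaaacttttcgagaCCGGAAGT
MRPS33: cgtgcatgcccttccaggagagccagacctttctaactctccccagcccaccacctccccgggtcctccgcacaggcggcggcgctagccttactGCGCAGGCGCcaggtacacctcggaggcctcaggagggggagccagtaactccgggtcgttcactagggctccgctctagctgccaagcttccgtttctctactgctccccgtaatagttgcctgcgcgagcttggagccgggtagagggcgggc
MRPL33: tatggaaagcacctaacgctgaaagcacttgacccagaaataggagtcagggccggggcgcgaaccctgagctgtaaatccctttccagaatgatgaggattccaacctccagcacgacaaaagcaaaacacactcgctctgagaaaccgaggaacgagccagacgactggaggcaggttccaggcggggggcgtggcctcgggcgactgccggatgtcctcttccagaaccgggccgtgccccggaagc

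MRPL27 holds the ETS letters at 52 and 8 bases before the start, MRPS33 holds the NRF1 letters at 155 bases before it, and MRPS5 and MRPL33 hold neither, nor the YY1 letters AAGATGGC. Of the 61 members with an entry in the table, 10 (16.4%) held the ETS letters, against 6.09% of 14206 protein-coding genes with a row. The NRF1 letters were in 7 (11.5%, against 8.97%) and the YY1 letters in 5 (8.20%, against 1.84%), and 20 members (32.8%, against 15.7%) held at least 1 of the 3 motifs. Of 69 cytosolic ribosomal protein genes, 15.9% held the ETS letters, 11.6% the NRF1 letters, 1.45% the YY1 letters and 20 genes any of them. The ETS and NRF1 shares of members were thus close to those of cytosolic ribosomal protein genes. Over all 27305 genes of the table the shares were 4.13%, 6.20%, 1.64% and 11.1% for ETS, NRF1, YY1 and any of these. A match describes letters only. In GENCODE 29, 14 of 70 members (20%) had another protein-coding gene starting on the other strand within 1000 bases upstream, against 1415 of 18929 protein-coding rows (7.48%). MRPS11 and MRPL46 are such a pair, and MRPL27, MRPL47 and MRPS34 share their upstream side with EME1, NDUFB5 and EME2.

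The effects of K17 in the 2 lines were compared in 1 fit of all 12 libraries, as K17 minus empty vector in PANC-1 less wild type minus knockout in L3.6. No member was called, against 1.54% of 17583 genes, and 3 members had an unadjusted p under 0.05 (0 calls by DESeq2 too). Without empty vector replicate 2 MRPL33 was the 1 member called of 69, and it was higher, against 11.5% of 15758 genes (8.72% higher). Its difference of effects was 0.69 on the log2 scale (SE 0.13, edgeR adjusted p = 0.0064). In L3.6, MRPL33 had 21.3, 20.4 and 22.3 CPM in knockout libraries, against 20.1, 19.7 and 19.5 CPM in wild type libraries, which did not overlap but missed the threshold (edgeR adjusted p = 0.53).

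The lines themselves differed more than the K17 groups within them. Between L3.6 wild type and PANC-1 empty vector cells, 9 members were higher and 19 lower in L3.6 among 70 tested. That is 40% of members, against 50.1% of 16608 genes (25.8% higher and 24.2% lower). Without empty vector replicate 2 these were 26 higher and 23 lower of 68 (72.1% of members, against 70.9% of 15143 genes, 35.8% higher and 35.1% lower), and 27 members passed in both fits. With upper-quartile scaling, which shifts the median of all genes by 0.22 on the log2 scale, the split was 14 higher and 15 lower. Sequencing depth, which was higher in every PANC-1 library, and line cannot be told apart here. Levels in this comparison are CPM scaled over these 6 libraries, and the log2 fold changes of named members below use all 6. Without empty vector replicate 2 the lowest log2 fold change was -3.40 (-3.81 with all 6) among MRPS and -3.39 (-3.86) among MRPL members. The highest was 2.44 (2.17 with all 6) among MRPS members and 2.27 (1.84) among large-subunit members with bacterial counterparts.

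The members lowest in L3.6 were far below their PANC-1 level. MRPS6, at the platform of the small subunit, had 6.59, 7.82 and 6.10 CPM in L3.6 wild type libraries, against 75.4, 141 and 71.2 CPM in PANC-1 empty vector libraries (log2 fold change -3.81, SE 0.34, edgeR adjusted p = 0.00017). MRPL58, a peptidyl-tRNA hydrolase that rescues stalled mitoribosomes, had 1.60, 3.20 and 0.502 CPM in L3.6, against 19.3, 39.5 and 17.0 CPM in PANC-1 (-3.86, SE 0.67, edgeR adjusted p = 0.0029). MRPS35 averaged 2.67 ± 1.17 CPM in L3.6 and 19.9 ± 0.931 CPM in PANC-1 (SD, n = 3 each), and its log2 fold change was -2.88 (edgeR adjusted p = 0.00074). The groups did not overlap for any of the 3 genes. MRPS33 followed, at -1.89 on the log2 fold scale, averaging 25.1 ± 2.81 CPM for L3.6 and 92.8 ± 27.6 CPM in PANC-1.

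In the other direction stood MRPL4 and MRPS24. MRPL4, whose bacterial counterpart lines the exit tunnel, had 94.5, 77.7 and 74.1 CPM in L3.6 wild type libraries, against 17.2, 33.8 and 17.6 CPM in PANC-1 empty vector libraries (log2 fold change 1.84, SE 0.31, edgeR adjusted p = 0.0027). MRPS24, the relative of bacterial S3, had 16.7, 14.3 and 16.4 CPM in L3.6, against 3.58, 4.62 and 2.34 CPM in PANC-1 (2.17, SE 0.30, edgeR adjusted p = 0.0012). Neither pair of groups overlapped. Exons of MRPS24 overlap the readthrough gene URGCP-MRPS24 on the same strand. The row of MRPL45 had 0 counts in PANC-1. Its L3.6 wild type mean of 5.24 CPM was 354-fold above a chosen floor of 3 counts over the 3 empty vector libraries (0.0148 CPM). That ratio describes the row only, because the split of reads between MRPL45 and its pseudogene is uncertain. MRPL54 passed too (log2 fold change 3.22, edgeR adjusted p = 0.017), on 4 to 6 counts per L3.6 library and 0, 5 and 2 in PANC-1. Its call was lost without any 1 of the wild type libraries (adjusted p 0.056 to 0.070), and without any 1 of the empty vector libraries it had too few counts to be tested.

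**Figure D5:**
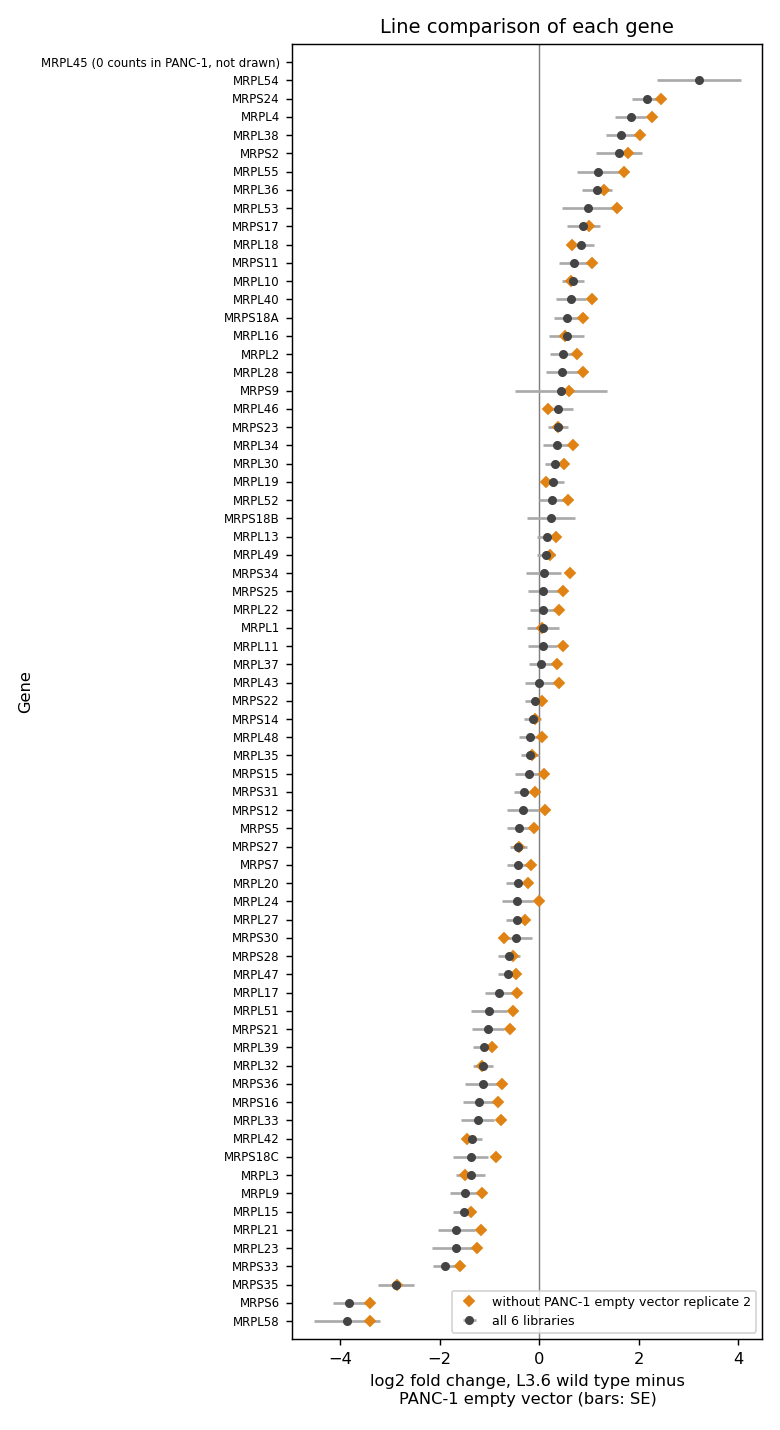
Log2 fold change of each member for L3.6 wild type minus PANC-1 empty vector, with all 6 libraries (dark points, SE bars) and without empty vector replicate 2 (orange diamonds); MRPL45 is not drawn, and MRPL54 and MRPS18B have no diamond because they were not tested. MRPL58, MRPS6 and MRPS35 are the lowest in both fits.

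Other genes of mitochondrial translation were examined as lists, whose counts are to be read against the share of all genes called (9.61% in L3.6, 6.1% higher and 3.51% lower). In L3.6, GUF1, a mitochondrial relative of the elongation factor LepA, fell (14.4 ± 0.284 CPM in knockout cells and 25.8 ± 5.67 CPM in wild type cells, SD, n = 3 each; log2 fold change -0.83, edgeR adjusted p = 0.017), the 1 call among 14 translation factors. Of 24 mitoribosome assembly and rRNA modification genes 3 rose in knockout cells (12.5%) and 0 fell. These were C1QBP, a matrix protein needed for mitochondrial translation (log2 fold change 0.59, SE 0.085, edgeR adjusted p = 0.0047), the RNA helicase DDX28 (0.67) and NGRN (0.26). Of 6 genes of mitochondrial DNA transcription and RNA stability, TEFM (-0.62) and SLIRP (-0.39) fell. Of 13 aminoacyl-tRNA synthetases and 4 mitoribosome proteins under other names (DAP3, CHCHD1, AURKAIP1, PTCD3), 0 passed, with 3 and 0 at an unadjusted p under 0.05.

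Among the 8 tested nuclear regulators of mitochondrial genes in L3.6, GABPB1, a subunit of GABP, rose (96.5 ± 2.83 CPM in knockout cells and 72.7 ± 3.40 CPM in wild type cells, log2 fold change 0.41, edgeR adjusted p = 0.0047) and the coactivator PPARGC1B fell (-0.74, edgeR adjusted p = 0.0092). Of the 13 protein genes of mitochondrial DNA, MT-ND4 (0.23) and MT-ND4L (0.24) rose and MT-ND1 (-0.26) fell. In PANC-1 with all libraries 0 genes of these lists passed by edgeR, and 2, both assembly genes, had an unadjusted p under 0.05. Without empty vector replicate 2, 2 of 25 assembly genes rose (NSUN4, 0.24, and FASTKD2, 0.17) and 4 fell (MTERF3, RBFA, MRM2 and C1QBP, -0.23 to -0.13), 24% in all against 20.7% of all genes. Also lower were TFAM (-0.26), which packages mitochondrial DNA, and SLIRP (-0.25) of 6 transcription and stability genes, YY1 (-0.34) and GABPA (-0.22) of 8 regulators, and the glutamyl-tRNA synthetase EARS2 (-0.16) of 13 synthetases. The release factor relative MTRF1L rose (0.15), the 1 call among 14 translation factors. Of the 13 mitochondrial DNA genes MT-CO2, MT-CO3 and MT-ATP6 rose (0.16 to 0.25) and MT-ND5 and MT-ND6 fell (-0.20 and -0.22). With all PANC-1 libraries, MT-CO2 (-0.41), MT-CO3 (-0.17), MT-ATP6 (-0.080), TFAM (0.21), GABPA (0.13) and MTRF1L (-0.047) had the opposite sign. The other genes named here for PANC-1 kept their sign.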

How the data were processed

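Counts per gene were used as the authors deposited them, whole numbers in 1 column per library with no normalization. Per the labels' protocols, TRIzol RNA went into Illumina TruSeq RNA libraries. Tools and build in the submitters' processing notes are GRCh38, STAR 2.7.3a, kallisto 0.46.2 and bcl2fastq 1.8.4. The counting tool, its annotation and any strand setting were not given in the sources used here, so overlapping and antisense genes and those with near-identical copies are uncertain. GENCODE 29 gave names and GRCh38 coordinates (34474 of 34505 rows).

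Each comparison was fitted with edgeR 4.0.16 in R 4.3.3 (TMM factors, filterByExpr, robust quasi-likelihood test, Benjamini-Hochberg over all genes tested, threshold 0.05). The test gives no SE, so SE of edgeR fits are the absolute log2 fold change divided by the square root of its F statistic. CPM use each line's own TMM factors unless stated. Counts at an unadjusted p under 0.05 are given without the matching share of all genes and are description only. Other settings tried were no filter, factors by RLE or upper quartile, DESeq2 1.42.0, limma 3.58.1 (voom with quality weights), 1 fit of all human groups, a replicate block and leaving out each library. The procedure was run on simulated counts in which no library stood apart, so that run does not cover libraries such as PANC-1 empty vector replicate 2.

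The rule for members reads symbols and no measured value, but it and the gene lists were chosen with earlier results of these data known. Named members were those past the threshold, the 4 highest and 4 lowest of each comparison, the 3 most abundant MRPS and MRPL genes per kilobase in each line, those under 1 CPM, and MRPS12, MRPL12, MRPL58, MRPS36, MRPS30, MRPS18A, MRPS18B and MRPS18C. From each list up to 4 called genes of at least 1 CPM were to be named per comparison. In PANC-1 without empty vector replicate 2, all called assembly genes and mitochondrial DNA genes were named, which is more than that. MRPL17, MRPL49 and MRPS23 fall outside the rule for named members and were chosen after their values were seen. MRPS11 and MRPL46 also fall outside it and were named for their position only. Every library differed from every other of its group by more than counting noise.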

Additional observations from a re-analysis of the deposited data

Results flagged for a closer look

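The effect of K17 on MRPL33 differed between the lines in a test of the difference itself, when PANC-1 empty vector replicate 2 was left out. The difference (K17 minus empty vector in PANC-1, less wild type minus knockout in L3.6) was 0.69 on the log2 scale, with an edgeR adjusted p of 0.0064. With all 12 libraries it was 0.12, with an edgeR adjusted p of 0.92. Groups of 3 libraries are too small for the test of a single library that lies far from the others.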

How the results depend on the processing

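The number of members called depended on single libraries and on the model. For L3.6 K17 knockout against wild type it was 1 (against 9.61% of all genes), and 2 by DESeq2 (against 12%). It was 2 with upper-quartile factors, 6 by limma-voom with quality weights and 0 in 1 fit of the 4 human groups. When 1 library was left out it was 0 to 14, with 14 without wild type replicate 1 (against 17.2% of all genes). For PANC-1 K17 against empty vector it was 0 (against 0.644% of all genes), and 8 by limma-voom with quality weights (against 18.7%). When 1 library was left out it was 0 to 12, with 12 without empty vector replicate 2 (against 20.7% of all genes). For the difference of effects it was 0, and 0 to 1 when 1 library was left out. For L3.6 wild type against PANC-1 empty vector it was 28 (against 50.1% of all genes). When 1 library was left out it was 16 to 49, with 49 without empty vector replicate 2 (against 70.9% of all genes). Where no share of all genes is given here, a count describes the members only and is not set against a background. RLE factors kept each count within 1.5 times, and without the filter the 1 call in L3.6 was MRPS18C in place of MRPS5. Leaving out a library also lowers the number of libraries, and causes were not tested.

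The log2 fold change of some PANC-1 members turned its direction with a call. MRPS16 was at 0.30 and MRPS33 at 0.25 by limma-voom with quality weights. Over the fits that left out 1 library, MRPL42 ranged over -0.11 to 0.086, MRPS16 over -0.20 to 0.33, MRPS21 over -0.47 to 0.13, MRPS33 over -0.14 to 0.25 and MRPS34 over -0.50 to 0.21, in each case with the value furthest from the others without empty vector replicate 2. The log2 ratio of summed levels moved by less than the spread between libraries under library totals and without the most abundant gene. When 1 library was left out, which for all but empty vector replicate 2 was chosen after seeing the data, it ranged over -0.000479 to 0.11 for MRPS and 0.000615 to 0.14 for MRPL members in L3.6 (0.045 and 0.058 with all libraries), highest without wild type replicate 1. In PANC-1 it ranged over -0.26 to 0.051 for MRPS and -0.26 to -0.022 for MRPL members (-0.16 and -0.18 with all libraries), highest without empty vector replicate 2, where the MRPS ratio turned its direction.

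The labels state no pairing of libraries by replicate number. Same-numbered libraries correlated at -0.095 to 0.093 in their deviations within a line. With 3 libraries per group, and replicate 2 far from the others in the empty vector group, these values cannot show whether libraries were paired. With the replicate number as a block, 0 members were called in L3.6 and 0 in PANC-1 (665 and 0 of all genes). With the same block 0 were called for the difference of effects and 21 between lines, where the shares of all genes are not given here. L3.6 libraries were shallower than PANC-1 libraries, which limits the precision for rare members there.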
